A study of Homo sapiens with 6 samples.

Results

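The histone genes of the HIST clusters, named HIST1H, HIST2H, HIST3H and HIST4H, were read in 6 RNA sequencing libraries of Huh7 cells, a human hepatocellular carcinoma line. A plasmid that overexpresses the long noncoding RNA gene TP53TG1 had been transfected for 3 libraries, and a control plasmid for the other 3. These are called TP53TG1 and Control libraries. All other conditions named in the labels were shared, and the sources used here do not give the vector, the dose or the time after transfection. Members were taken by name, leaving out names that contain PS or end in P and digits, and transcript values were summed per gene ID. This gave 75 genes of 58233 listed, with 107 of 199234 transcripts. By name 6 are H1 genes, 17 H2A, 22 H2B, 15 H3 and 15 H4, and 4 of the H2B genes are typed as pseudogenes. On chromosome 6 lie 56 of them, on chromosome 1 lie 18, and HIST4H4 lies on chromosome 12.

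Histones package DNA. Pairs of H2A, H2B, H3 and H4 form the core of the nucleosome, and the linker histone H1 binds the DNA where it enters and leaves that core. Most mRNAs of the clusters are made in S phase, when new DNA must be packaged, and they are the well known exception among mRNAs of animal cells in having no poly(A) tail. Their 3′ end is made by a cut just after a short hairpin, the histone stem-loop, which the stem-loop binding protein SLBP holds. Some genes of the clusters, HIST1H2BK and HIST1H1C among them, can also give polyadenylated mRNAs, which are seen in cells that have stopped dividing. How much of a histone mRNA a library shows therefore depends on whether polyadenylated RNA was selected. The labels name total RNA and a TruSeq kit, and the sources used here do not give the selection step.

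The hairpins and poly(A) signals are shown because they define the 2 kinds of 3′ end that the gene annotation holds for these genes. The sequences are from GENCODE release 29 transcripts (GRCh38), 5′ to 3′ on the strand of the gene, written as DNA. Capitals mark the stem and loop in the first 7 lines and the AATAAA or ATTAAA poly(A) signal in the last 3. The stem-loops lie at chr6:26124664-26124689 on the plus strand for HIST1H2AC and at chr1:149886183-149886208 on the minus strand for HIST2H2BE. Those of HIST1H2BD and HIST1H2BC lie at chr6:26158582-26158607 on the plus strand and chr6:26123467-26123492 on the minus strand. That of HIST2H4A lies at chr1:149833027-149833052 on the plus strand. The HIST2H2AA3 and HIST2H2AA4 stem-loops, whose letters are the same, lie at chr1:149842218-149842243 on the minus strand and chr1:149851569-149851594 on the plus strand. The poly(A) signals shown lie at chr6:26171315-26171338 for HIST1H2BD, chr6:26114882-26114905 for HIST1H2BC and chr1:149851593-149851616 for HIST2H2AA4. All lie in the 3′ UTR of the transcript.
HIST1H2AC stem-loop: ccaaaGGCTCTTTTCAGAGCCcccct
HIST2H2BE stem-loop: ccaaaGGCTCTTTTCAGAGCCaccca
HIST1H2BD stem-loop: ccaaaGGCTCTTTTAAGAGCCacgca
HIST1H2BC stem-loop: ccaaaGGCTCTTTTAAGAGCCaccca
HIST2H4A stem-loop: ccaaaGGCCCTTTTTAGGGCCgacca
HIST2H2AA3 stem-loop: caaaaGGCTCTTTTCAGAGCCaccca
HIST2H2AA4 stem-loop: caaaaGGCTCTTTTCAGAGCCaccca
HIST1H2BD poly(A) signal: agttataattAATAAAatctgcgg
HIST1H2BC poly(A) signal: taaagacaaaATTAAAataactcc
HIST2H2AA4 poly(A) signal: cacgttttcaAATAAAagagttgt

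The histone stem-loop consensus, searched on the strand of the transcript, was found in 50 of the 107 member transcripts (46.7%) and in 63 of 206587 other transcripts (0.0305%). AATAAA or ATTAAA in the last 60 nt was found in 32 of the 107 (29.9%) and in 66018 others (32.0%). By their models, 13 member transcripts end within 60 nt of the stem-loop, 34 run past it, 11 have a 3′ UTR with no stem-loop, 35 are a coding sequence with no 3′ UTR and 14 have no coding sequence annotated. HIST1H2BK and HIST1H1C are both modelled as bare coding sequences, of 381 and 642 nt, so the files cannot show which 3′ end their mRNAs carried. The stem-loop transcripts of HIST1H2BD, HIST2H2AA3 and HIST2H2AA4 also hold an AATAAA or ATTAAA after the hairpin, so the 2 motifs do not exclude each other. A match describes the letters of the annotation and is not a measured 3′ end.

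Facts of the libraries bear on all values that follow. TP53TG1, the transfected gene, was at 69.8, 134 and 70.5 FPKM in the TP53TG1 libraries, against 10.6, 5.25 and 6.15 FPKM in the Control libraries, without overlap. FPKM is a fragment number divided by transcript length and by the depth of the library, so levels can be compared between genes. A step in the low values, if it is 1 fragment, corresponds to 15200000 to 18900000 fragments a library. On a 400 nt transcript, a common size here, 1 FPKM would then rest on 6.09 to 7.57 fragments. TP53TG1 replicate 1 stood apart: small structured RNAs, which have no poly(A) tail, held 6.61% of its FPKM, against 0.257% to 1.53% in the other 5. The libraries numbered 1 had shorter protein-coding transcripts, of 1212 nt (TP53TG1) and 1290 nt (Control) on average weighted by FPKM, against 1594 to 1644 nt in the other 4. Of 10 hepatocyte markers, 6 reached a mean of 1 FPKM. ALB (albumin) was at 0.53 to 1.22 FPKM and TTR (transthyretin) at 0 to 0.17 FPKM, while AFP (alpha-fetoprotein) reached 3.49 FPKM. Replicates are not described in the labels as separate cultures, so p-values here rest on sample spread that may be technical. In bulk RNA, fewer cells in S phase and less histone mRNA per cell cannot be told apart.

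The histone genes together were a small share of all RNA, and their sum did not separate the groups. Their summed FPKM was 186.5, 157.2 and 153.2 in the TP53TG1 libraries, against 233, 136.3 and 167.2 in the Control libraries. The groups overlapped, with the highest and the lowest sum both among the Control libraries. The means were 166 ± 18.2 FPKM with TP53TG1 and 179 ± 49.4 FPKM with the control plasmid (SD, n = 3 each), a ratio of 0.926, and the sum was 0.02% to 0.0311% of a library's FPKM. The ratio turned to 1.29 with median-of-ratios scaling, which divides each library by a factor from genes above 0 in all 6. That factor was 0.615 for TP53TG1 replicate 1, against 0.994 to 1.19 for the other 5. The scaling thus raised the sum of that library most, and the 1.29 rested largely on it. The 7 highest members held 69.4% of the total: HIST2H2AA4, HIST1H2BK, HIST2H4A, HIST1H1C, HIST2H2AA3, HIST2H2AC and HIST2H2BC.

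**Figure D1:**
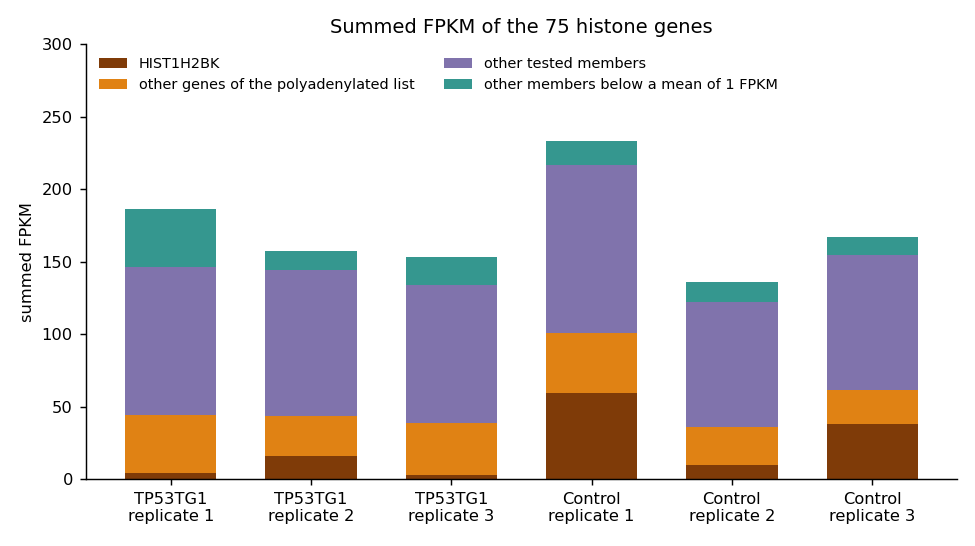
Summed FPKM of the 75 histone genes in each library, stacked by HIST1H2BK, the other genes known to give polyadenylated mRNAs, the other members with a mean of at least 1 FPKM, and the other members below it. HIST1H2BK ranges from 3.14 to 59.3 FPKM, and the members below 1 FPKM are tallest in TP53TG1 replicate 1.

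Members known to give polyadenylated mRNAs had a lower ratio of sums than the rest, and this rested on HIST1H2BK. The polyadenylated list (HIST1H1C, HIST1H2AC, HIST1H2BC, HIST1H2BD, HIST1H2BJ, HIST1H2BK, HIST2H2BE and HIST3H2A) summed to 44.2, 43.4 and 38.7 FPKM in the TP53TG1 libraries, against 100.8, 36.4 and 61.8 FPKM in the Control libraries. Its ratio of means was 0.634, and 1.12 without HIST1H2BK. The other 67 members summed to 142.3, 113.8 and 114.5 FPKM in the TP53TG1 libraries, against 132.2, 99.9 and 105.5 FPKM in the Control libraries, a ratio of 1.10. Both sums overlapped between the groups.

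Only 22 of the 75 members reached the mean of 1 FPKM over the 6 libraries that was set for testing. Another 35 were above 0 in at least 1 library but under that mean, and 18 were listed at 0 in all 6. None of the 22 passed limma with Benjamini-Hochberg adjustment at 0.05, where 0.00778% of all 12853 tested genes did, which is 1 gene. At an unadjusted p under 0.05, 3 members were higher with TP53TG1 (HIST2H2AA4, HIST2H3D and HIST1H1E), beside 0.436% of all genes. By the same measure 2 were lower (HIST1H2BK and HIST2H2AA3), beside 1.91% of all genes. The same 3 higher members were the only ones of the 22 whose groups did not overlap upward, beside 0.428% of all tested genes, and none was apart downward, beside 13.3%. With median-of-ratios scaling HIST4H4 joined the 3, beside 1.89% of all genes, and still none was apart downward, beside 2.18%. HIST2H3D and HIST1H1E passed the limit of 1 FPKM only through the TP53TG1 libraries, where they were high, so the counts that hold them support nothing. The adjustment was over all genes tested. The transfected gene itself, at a log2 difference of 3.46 (SE 0.381), missed the threshold with a limma adjusted p of 0.0573. Simulated data gave 77 of 100 genes back at a log2 change of 1.5 and 100 of 100 at 3. Their libraries varied independently around a spread smoothed over genes, and the lowest genes were left unchanged. They therefore do not show what the test could find among the low histone genes here.

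The median log2 fold change, TP53TG1 over Control on the log2(FPKM + 1) scale, was 0.00 over the 22 histone genes and -0.35 over all 12853. Of the 22, 19 lay above the median of all genes. This scale draws changes of low genes toward 0, which lies above -0.35, and most of the 22 are low. HIST1H1E, HIST2H3D and HIST1H4D were among the 22 only through their high TP53TG1 values, HIST1H4D through replicate 1. HIST1H3E was among them only through its Control values. The count by itself therefore does not show a relative rise. With median-of-ratios scaling the medians were 0.30 for the histone genes and -0.01 for all genes. The 0.30 is over 24 histone genes, since HIST1H3C and HIST1H4L then also reached 1 FPKM. That scaling divides all genes of a library by 1 factor, so a gap of similar size after it is no separate support. The members tested reached 1 FPKM through either group, and these counts describe them and not all 75. Within the 22, the 15 outside the polyadenylated list had a median of 0.21 and the 7 of that list -0.02.

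**Figure D2:**
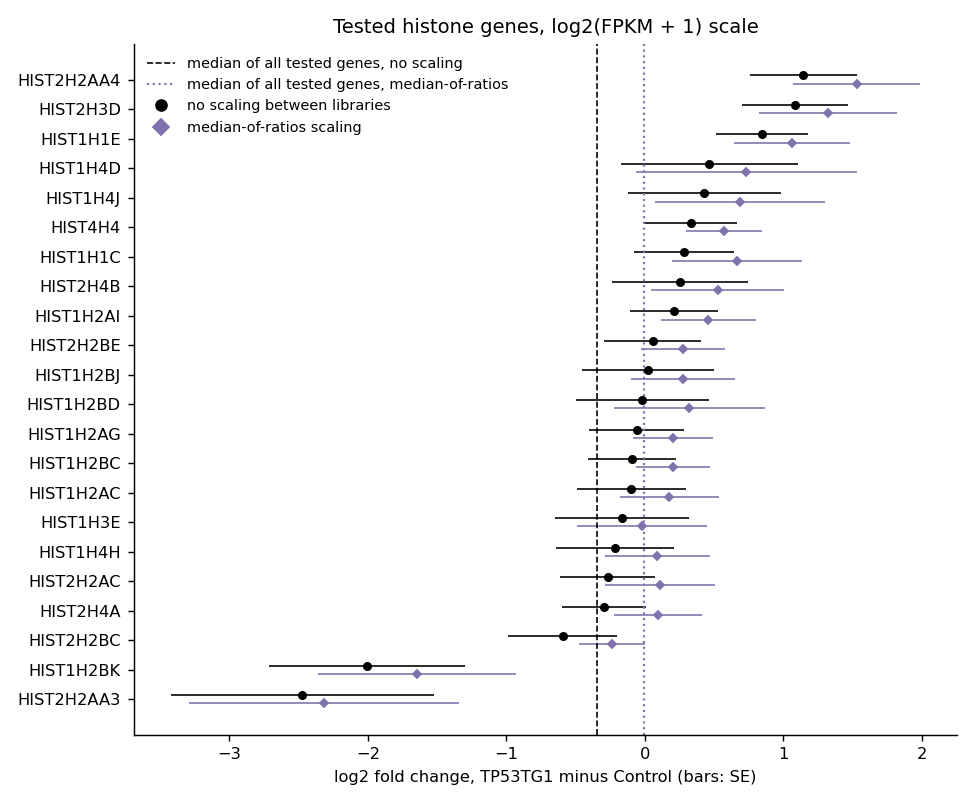
Log2 fold change of the 22 tested histone genes, TP53TG1 minus Control on the log2(FPKM + 1) scale, without scaling (circles) and with median-of-ratios scaling (diamonds), bars giving the SE from limma. Vertical lines mark the median of all tested genes at -0.35 and -0.01. Most members lie to the right of their line, and HIST1H2BK and HIST2H2AA3 lie far to the left.

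HIST1H2BK, an H2B gene used here as the leading polyadenylated member, had the widest range in FPKM of all members. It was at 4.65, 16.1 and 3.14 FPKM in the TP53TG1 libraries, against 59.3, 10 and 37.9 FPKM in the Control libraries. The groups overlapped, since TP53TG1 replicate 2 exceeded Control replicate 2. TP53TG1 over Control ratios within pairs of the same number were 0.0784, 1.61 and 0.0829. On the log2 scale the difference was -2.00 (SE 0.708), which did not pass limma (Benjamini-Hochberg adjusted p = 0.748), and the exact two-sided permutation p was 0.2. Blocking on the replicate number gave an adjusted p of 7.36e-07, in a fit that called 1.49% of all genes, and adding median-of-ratios scaling to the block ended that call. Over the alternatives its adjusted p ran from 7.36e-07 to 1. Of the 50-base words of its transcript, 74.1% occur in other genes, most in H2BFS (61.4%), which was at 0.58, 0 and 0 FPKM in the TP53TG1 libraries and 0, 0.09 and 0.21 FPKM in the Control libraries.

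HIST1H1C, which encodes a linker histone that is also made outside S phase, was the second polyadenylated member by level. It was at 27.1, 12.3 and 18.6 FPKM in the TP53TG1 libraries, against 17.9, 14.8 and 12.7 FPKM in the Control libraries. The groups overlapped, and TP53TG1 replicate 1 was highest. On the log2 scale it differed by 0.28 (SE 0.360, limma adjusted p = 0.748), and none of its 50-base words occurs in another gene. HIST1H2BK and HIST1H1C, both of the polyadenylated kind, had log2 differences of opposite sign, and neither passed the test. The value of HIST1H1C rested on TP53TG1 replicate 1: it was 0.013 without that library, and 0.013 to 0.55 when single libraries were left out.

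The other genes of the polyadenylated list were low. With median-of-ratios scaling HIST1H2AC, HIST1H2BC and HIST1H2BD turned sign, while HIST1H2BJ and HIST2H2BE did not. HIST1H2BD (H2B) was at 6.54, 3.86 and 3.62 FPKM in the TP53TG1 libraries and 9.81, 3.84 and 2.36 FPKM in the Control libraries, with a log2 fold change of -0.02 that became 0.32 with median-of-ratios scaling. HIST1H2BJ (H2B) was at 1.08, 5.10 and 4.86 FPKM with TP53TG1 and 4.14, 2.28 and 3.22 FPKM with the control plasmid. HIST1H2BC (H2B) lay within 2.14 to 2.93 FPKM in the TP53TG1 libraries and 2.26 to 3.14 FPKM in the Control libraries. These 3 H2B genes all overlapped between the groups. HIST1H2AC (H2A) lay within 1.71 to 3.13 FPKM with TP53TG1 and 1.64 to 4.59 FPKM with the control plasmid. HIST2H2BE (H2B) lay within 0.92 to 2.39 FPKM with TP53TG1 and 0.90 to 1.99 FPKM with the control plasmid. HIST3H2A (H2A) did not pass 0.06 FPKM in any library. The HIST2H2BE transcript and the main HIST1H2AC transcript, of 1654 nt, are annotated to run past the stem-loops printed above. HIST1H2AC also has a transcript of 1462 nt with a 3′ UTR and no stem-loop.

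**Figure D3:**
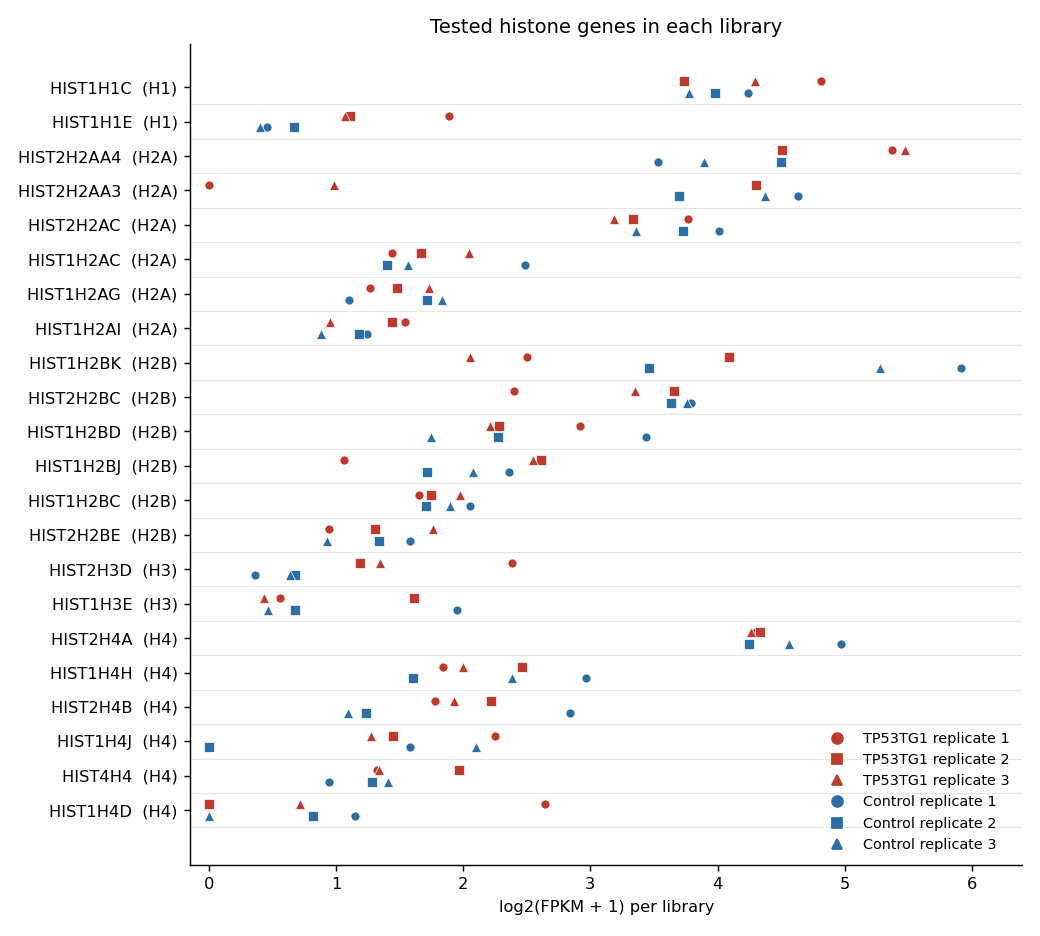
Log2(FPKM + 1) of the 22 tested histone genes in each library, ordered by class and by mean, with TP53TG1 libraries (red) drawn above Control libraries (blue) and symbol shape giving the replicate number. HIST1H1E, HIST2H2AA4 and HIST2H3D have all 3 red points to the right of the blue ones, and the other 19 overlap.

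Among the genes outside the polyadenylated list, the second linker histone gene above the limit had groups that did not overlap. HIST1H1E was at 2.70, 1.15 and 1.10 FPKM in the TP53TG1 libraries, against 0.37, 0.59 and 0.32 FPKM in the Control libraries. No library of one group reached the other, and TP53TG1 replicate 1 was highest. The means were 1.65 ± 0.910 FPKM with TP53TG1 and 0.427 ± 0.144 FPKM with the control plasmid (SD, n = 3 each). The log2 difference of 0.85 (SE 0.331) did not pass (limma adjusted p = 0.748), and the exact two-sided permutation p was 0.1, the smallest that 3 against 3 libraries allow. HIST1H1A and HIST1H1B were under the limit, at up to 0.23 and 1.56 FPKM. Summed over the class, H1 was 31.5, 14.1 and 21.3 FPKM in the TP53TG1 libraries, against 19.0, 15.5 and 13.4 FPKM in the Control libraries, with overlap.

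The H2A class was led by the near identical copies HIST2H2AA3 and HIST2H2AA4, whose separate log2 differences had opposite signs. HIST2H2AA3 was listed at 0, 18.8 and 0.97 FPKM in the TP53TG1 libraries, against 23.8, 11.98 and 19.7 FPKM in the Control libraries. HIST2H2AA4 was at 40.4, 21.8 and 43.5 FPKM in the TP53TG1 libraries, against 10.6, 21.6 and 13.9 FPKM in the Control libraries. The log2 fold changes were -2.47 (SE 0.947) for HIST2H2AA3 and 1.14 (SE 0.387) for HIST2H2AA4, each with a limma adjusted p of 0.748. With the replicate block both were called, at adjusted p of 1.34e-10 for HIST2H2AA3 and 0.0435 for HIST2H2AA4, among 0.584% of all genes called higher and 0.91% called lower. Over the alternatives those adjusted p reached 1 for both. The 549 nt transcript of HIST2H2AA3 is contained whole in the 564 nt transcript of HIST2H2AA4, so a read inside it fits both genes equally well.

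Added together, the copies were far steadier than either one. The sum was 40.4, 40.5 and 44.4 FPKM in the TP53TG1 libraries, against 34.4, 33.6 and 33.6 FPKM in the Control libraries. The groups did not overlap, and the means were 41.8 ± 2.30 FPKM with TP53TG1 and 33.9 ± 0.445 FPKM with the control plasmid (SD, n = 3 each), a ratio of 1.23. The exact two-sided permutation p was 0.1, the smallest possible here. For the sum, limma gave a log2 difference of 0.29 (SE 0.252, adjusted p = 0.748). Median-of-ratios scaling made it 0.69, and the block an adjusted p of 0.585. The calls of the single copies were thus not seen in the sum. The order of the libraries by HIST2H2AA3 began with Control replicate 1, Control replicate 3, TP53TG1 replicate 2 and Control replicate 2, and HIST1H2BK had the same first 4, a likeness noticed after the values were seen.

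**Figure D4:**
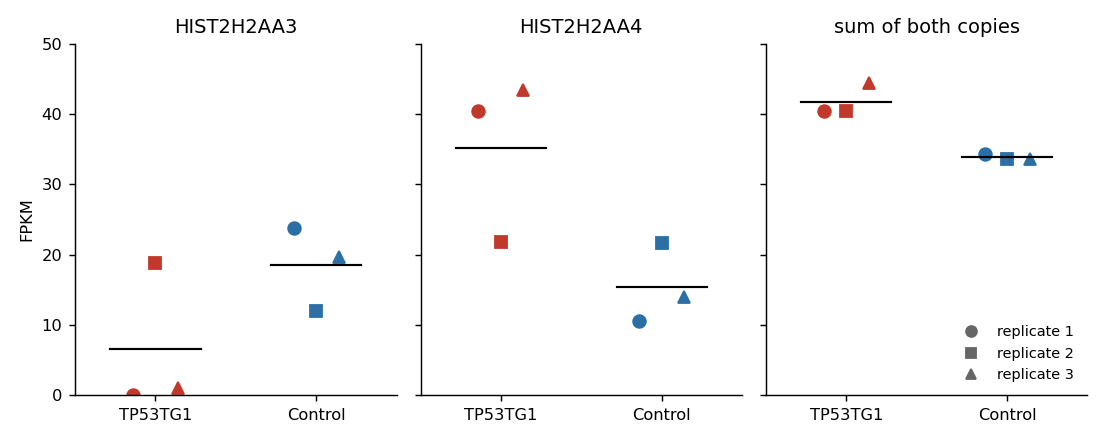
FPKM of HIST2H2AA3, HIST2H2AA4 and their sum in each library, with TP53TG1 left of Control, symbol shape giving the replicate number and black lines the group means. The single copies range from 0 to 23.8 and from 10.6 to 43.5 FPKM, while the sums lie at 40.4 to 44.4 FPKM with TP53TG1 and 33.6 to 34.4 FPKM with the control plasmid.

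HIST2H2AC, the third H2A gene by level, overlapped between the groups. It was at 12.7, 9.07 and 8.08 FPKM in the TP53TG1 libraries, against 15.1, 12.2 and 9.27 FPKM in the Control libraries. A log2 difference of -0.27 (SE 0.343) became 0.11 when median-of-ratios factors were applied. HIST1H2AG lay within 1.40 to 2.31 FPKM with TP53TG1 and 1.14 to 2.56 FPKM with the control plasmid, and HIST1H2AI within 0.93 to 1.91 FPKM with TP53TG1 and 0.84 to 1.36 FPKM with the control plasmid, both with overlap. The whole H2A class summed to 69.7, 56.0 and 62.9 FPKM in the TP53TG1 libraries, against 59.9, 55.5 and 51.7 FPKM in the Control libraries.

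Among H2B genes, HIST2H2BC came next to HIST1H2BK by level. It is a transcribed pseudogene, and it was at 4.27, 11.6 and 9.20 FPKM in the TP53TG1 libraries, against 12.8, 11.4 and 12.5 FPKM in the Control libraries. TP53TG1 replicate 1 was lowest, and the groups overlapped. All of its 50-base words also occur in the gene AC239868.2, so its reads could not be assigned to a single gene by sequence. The H2B class summed to 26.8, 42.4 and 30.6 FPKM in the TP53TG1 libraries, against 94.4, 33.7 and 63.2 FPKM in the Control libraries. Its ratio of means was 0.522, and 0.904 without HIST1H2BK.

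Histone H3 was the class with the largest ratio of sums. The 15 H3 genes summed to 14.4, 11.8 and 8.33 FPKM in the TP53TG1 libraries, against 9.37, 3.43 and 4.70 FPKM in the Control libraries. The groups overlapped through Control replicate 1, and the ratio of means was 1.97. It was 1.72 without TP53TG1 replicate 1 and 2.47 without both libraries numbered 1. HIST2H3D was at 4.21, 1.28 and 1.54 FPKM with TP53TG1, against 0.28, 0.60 and 0.55 FPKM with the control plasmid, without overlap. Its log2 fold change was 1.08 (SE 0.382, limma adjusted p = 0.748), and 80.4% of its 50-base words occur in other genes. HIST1H3E, the other tested H3 gene, was at 0.47, 2.06 and 0.35 FPKM with TP53TG1 and 2.87, 0.60 and 0.38 FPKM with the control plasmid, with overlap. HIST1H3C was at 2.46, 1.60 and 0.77 FPKM with TP53TG1, and at 1.00, 0 and 0 FPKM with the control plasmid. HIST1H3B was at 0.70, 1.92 and 0.77 FPKM with TP53TG1, and at 2.01, 0 and 0.28 FPKM with the control plasmid. HIST2H3A and HIST2H3C, chosen after their values were seen, had identical values: 1.5, 0.84 and 1.03 FPKM with TP53TG1, against 0.44, 0.46 and 0.61 FPKM with the control plasmid. The class sum counts both. Their summed log2 fold change was 0.68, with a limma adjusted p of 0.748.

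The H4 genes, most of which encode the same protein, overlapped between the groups as a class. It summed to 44.0, 32.9 and 30.0 FPKM in the TP53TG1 libraries, against 50.3, 28.2 and 34.2 FPKM in the Control libraries. HIST2H4A, the highest of them, was at 18.8, 19.2 and 18.2 FPKM with TP53TG1, against 30.4, 18.0 and 22.7 FPKM with the control plasmid. Its TP53TG1 libraries agreed closely while the Control libraries spread widely, and its log2 fold change of -0.29 (SE 0.305) became 0.09 with median-of-ratios scaling. HIST2H4B was at 2.43, 3.64 and 2.81 FPKM with TP53TG1 and 6.16, 1.35 and 1.13 FPKM with the control plasmid. All 50-base words of the main transcripts of HIST2H4A and HIST2H4B occur in the other gene of the pair, so their separate values are uncertain. HIST1H4H was at 2.57, 4.52 and 3.00 FPKM with TP53TG1 and 6.80, 2.03 and 4.21 FPKM with the control plasmid. For these 3 the groups overlapped, as they did for the sum of HIST2H4A and HIST2H4B. That sum was 21.2, 22.8 and 21.0 FPKM with TP53TG1, against 36.6, 19.4 and 23.8 FPKM with the control plasmid. HIST1H4J and its near copy HIST1H4K also had uneven values. HIST1H4K was listed at 0, 0 and 0.54 FPKM with TP53TG1 and 0, 3.82 and 0 FPKM with the control plasmid, and HIST1H4J at 3.74, 1.73 and 1.42 FPKM with TP53TG1 and 1.99, 0 and 3.29 FPKM with the control plasmid. HIST1H4D was at 5.23, 0 and 0.64 FPKM with TP53TG1 and 1.21, 0.76 and 0 FPKM with the control plasmid, with TP53TG1 replicate 1 above the rest. HIST4H4, which shares no 50-base word with another gene, was at 1.49, 2.90 and 1.53 FPKM with TP53TG1, against 0.92, 1.43 and 1.65 FPKM with the control plasmid.

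Sequence sharing touched most members. At least 1 of the 50-base words of the main transcript occurs in another gene for 43 of the 75 members and for 16 of the 22 tested. At least 90% do so for 12 members, of which 5 were tested. On the same strand 8 members overlap an exon of another gene, and 11 do on the opposite strand. The sources used here do not say whether the libraries keep the strand, so sense and antisense reads cannot be told apart for those 11. An example chosen after its values were seen is HIST1H2AK, which lies whole within HIST1H2BN on the other strand. Their sum was 1.24, 0.37 and 0.54 FPKM in the TP53TG1 libraries, against 1.65, 1.48 and 2.03 FPKM in the Control libraries. It did not overlap between the groups and did not pass, at a log2 difference of -0.69 (SE 0.319, limma adjusted p = 0.748).

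HIST1H2BD and HIST1H2BC each have a transcript with the printed stem-loop and another that ends at the printed poly(A) signal. The stem-loop transcript of HIST1H2BD, of 496 nt, was listed at 2.95, 0 and 1.36 FPKM in the TP53TG1 libraries, against 0, 0 and 0 FPKM in the Control libraries. Its poly(A) transcript, of 789 nt, was at 3.59, 3.86 and 2.26 FPKM with TP53TG1 and 9.81, 3.84 and 2.36 FPKM with the control plasmid. For HIST1H2BC the stem-loop transcript, of 571 nt, is modelled to run 116 nt past the hairpin and not to end at it. It held 79.0%, 25.9% and 58.4% of the gene's FPKM in the TP53TG1 libraries, against 13.1%, 29.7% and 38.4% in the Control libraries. The stem-loop shares were highest in TP53TG1 replicates 1 and 3 for both genes, and in TP53TG1 replicate 2 they lay within the range of the Control libraries. The same replicates 1 and 3 had the larger shares of small structured RNA, 6.61% and 1.53%, against 0.601% in replicate 2, and the part of those RNAs in this was not tested. Control replicate 1, at 0.785%, had the lowest HIST1H2BC stem-loop share. Summed over the 13 member transcripts that end within 60 nt of the stem-loop, FPKM was 54.3, 49.0 and 51.4 in the TP53TG1 libraries, against 43.1, 35.6 and 41.3 in the Control libraries, without overlap. The HIST2H2AA3 and HIST2H2AA4 transcripts are among those 13 and held most of that sum. Other transcript models did not share this: the 50 transcripts with a stem-loop summed to 96.8, 99.4 and 101.1 FPKM with TP53TG1 and 111.1, 79.6 and 90.6 FPKM with the control plasmid, with overlap. The 34 that run past it also overlapped. The 14 with no coding sequence summed to 4.64, 11.9 and 9.70 FPKM with TP53TG1, against 12.95, 12.3 and 13.8 FPKM with the control plasmid, without overlap in the other direction. Most of that sum was the HIST2H2BC transcript, which itself holds a stem-loop and whose groups overlapped. Of all tested genes, 13.3% were apart downward.

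**Figure D5:**
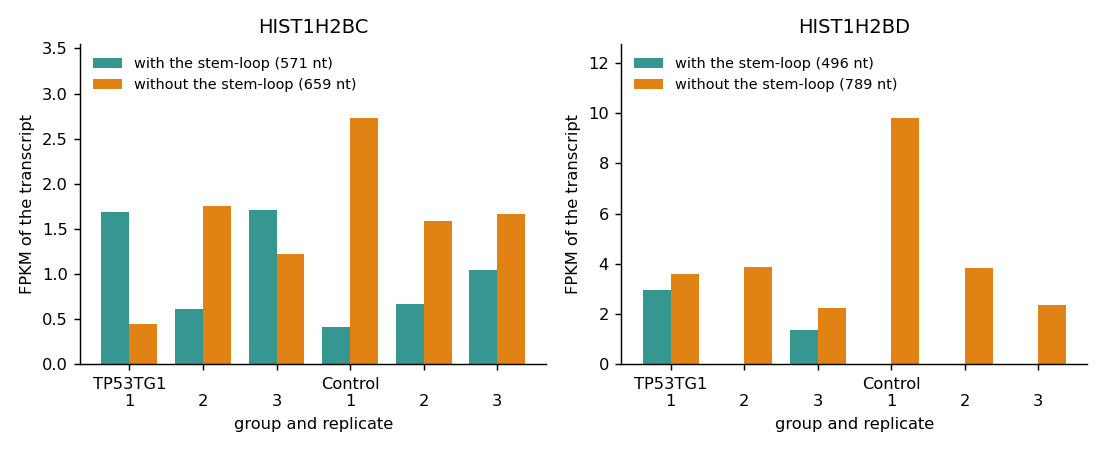
FPKM of the transcript with the stem-loop (green) and of the transcript without it (orange) for HIST1H2BC and HIST1H2BD in each library, TP53TG1 libraries left of Control libraries. The stem-loop transcript of HIST1H2BD is above 0 only in TP53TG1 replicates 1 and 3, at 2.95 and 1.36 FPKM.

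The members too low to test were most visible in 1 library. Summed over these 53, FPKM was 40.1, 12.7 and 19.1 in the TP53TG1 libraries, against 16.4, 13.8 and 12.5 in the Control libraries. TP53TG1 replicate 1 stood above the rest, and the ratio of means of 1.68 fell to 1.12 without it. Of the 35 that were above 0 anywhere, 20 had their highest value in TP53TG1 replicate 1, 1 in TP53TG1 replicate 2 and 5 in replicate 3, against 4, 2 and 3 in Control replicates 1, 2 and 3. Ties with a Control library were counted for TP53TG1: HIST1H2BG in replicate 1, and HIST1H2BE and HIST3H2A in replicate 3. HIST2H3A and HIST2H3C, with identical values, both count among the 20. HIST1H4L, HIST1H2AM and HIST1H4C, chosen after their values were seen, reached 4.36, 2.79 and 2.41 FPKM there and no more than 0.64 FPKM in any other library. That library also had the largest share of small structured RNA, and the part of this in the result was not tested.

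The genes that make, carry or accompany histone mRNA did not pass the test either. No gene was called in the lists of histone variants outside the clusters (10 of 11 tested), histone mRNA processing factors (14 of 16), histone chaperones (16 of 16) or DNA replication and S phase genes (20 of 20). At an unadjusted p under 0.05 these lists also held 0 genes by limma. Their median log2 fold changes were -0.42, -0.31, -0.31 and -0.05, beside -0.35 for all genes. Of the replication and S phase genes, 18 of 20 lay above the median of all genes. SLBP was at 27.5, 42.3 and 65.6 FPKM in the TP53TG1 libraries, against 51.0, 54.4 and 47.0 FPKM in the Control libraries. CPSF3, the nuclease that cuts histone and other pre-mRNAs, was at 7.56, 10.8 and 10.4 FPKM with TP53TG1, against 13.6, 13.5 and 13.8 FPKM with the control plasmid, without overlap, and 13.3% of all genes were apart downward. Its log2 fold change was -0.48 (SE 0.309, limma adjusted p = 0.748), and -0.12 after median-of-ratios scaling. H2AFZ, which encodes the replication-independent variant H2A.Z from a polyadenylated mRNA, was at 401, 539 and 519 FPKM with TP53TG1 and 625, 616 and 577 FPKM with the control plasmid. A single variant gene was therefore above the sum of all 75 cluster genes in each of the 6 libraries. E2F1 and the replication helicase gene MCM7 overlapped between the groups, with MCM7 at 93.1, 237 and 305 FPKM with TP53TG1, against 189, 287 and 240 FPKM with the control plasmid.

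Structured RNAs with no poly(A) tail had a higher median log2 fold change than the tested histone genes. Their list held 8 tested gene IDs, all above the median of all genes, with a median log2 fold change of 2.00. By limma 4 had an unadjusted p under 0.05, and for all 8 the groups overlapped. RPPH1, the RNA of RNase P, was at 1103, 94.8 and 147 FPKM in the TP53TG1 libraries, against 141, 3.93 and 10.7 FPKM in the Control libraries. With the replicate block 7 of the 8 were called higher by limma, beside 0.584% of all genes, and 2 when median-of-ratios factors were added to the block, beside 0.0469%. RPPH1 was highest in TP53TG1 replicate 1 and in Control replicate 1 within each group. The histone genes outside the polyadenylated list had a median of 0.21, nearer to the -0.35 of all genes than to 2.00. Most of these histone genes are low, and the log2(FPKM + 1) scale draws changes of low genes toward 0. The medians therefore cannot be compared directly with that of the structured RNAs, most of which are far higher. The difference was not tested.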

How the data were processed

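The authors deposited 1 value per transcript and library, read here as FPKM (fragments divided by transcript length and library depth), where no header names a unit. The reasons are that values are not whole, library totals differ, and value times length in kb sums to 679383 to 1129554 a library, the size FPKM should give. The submitters' processing notes name HISAT2, StringTie and GRCh38.p10, and the sources used here give no versions or parameters. Values were added per gene ID, and blank gene names (0 to 88000 a library) were filled by transcript ID from the other libraries. The test was limma 3.58.1 in R 4.3.3 (lmFit, eBayes with trend) on log2(FPKM + 1), for genes averaging 1 FPKM or more, Benjamini-Hochberg adjusted over all 12853 genes, threshold 0.05. This scale understates changes of low genes, and an exact 0 may be a failed estimate. Single values had exact two-sided permutation tests. Sequences, positions and types came from GENCODE release 29, which holds 99.8% of the transcripts (Python 3.11.15, pandas 2.3.3, matplotlib 3.10.9).

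Both groups are numbered 1 to 3. Deviations from the group means correlated at 0.71, 0.562 and 0.289 between same-numbered libraries, all over the limit of 0.1 for pairing; this pairing rests on the data, not on the labels. Libraries of unlike number also passed the limit, at 0.4 for TP53TG1 replicate 2 with Control replicate 3 and 0.302 for TP53TG1 replicate 3 with Control replicate 2. The values thus do not single out the numbering of replicates 2 and 3, and block calls depend on it. In the block fit every gene's spread came from the trend. In simulated data of 12853 genes the libraries varied independently around a smoothed spread, which is simpler than the real data. There the test recovered 77 of 100 genes changed by log2 1.5 and 100 of 100 by 3, with 11 false calls. The members, lists and tests were chosen with earlier results of these data known. Named were the polyadenylated list, the 4 highest members per class, up to 5 tested members per direction with the smallest p, and up to 4 per other list. Alternatives were other scalings, pseudocounts, filters, the block, no trend, leaving out libraries and, chosen after seeing the data, summing identical copies and leaving out HIST1H2BK.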

Additional observations from a re-analysis of the deposited data

How the results depend on the processing

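The count of all genes past the threshold was 1. It was 2 with median-of-ratios scaling, 0 with no filter, 2 with a mean of at least 5 FPKM, 192 with the replicate block, 6 with the replicate block and median-of-ratios scaling, and 0 to 1 when single libraries were left out (0 without Control replicate 1 and 0 without Control replicate 3). The histone count was 0 in all alternatives run except the replicate block, where it was 3, and with identical copies summed in that fit HIST1H2BK alone was called. The block changed no other call of a histone gene. Leaving out single libraries gave 0 to 0 histone genes. The ratio of summed histone FPKM, 0.926, was 1.29 with median-of-ratios scaling and 0.634 over the polyadenylated list alone. The cause of these changes was not tested.

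Of 293 values for 19 named members under alternatives, 249 kept direction and side of the threshold, 3 became calls and 41 turned sign, all of them values that had not passed. With median-of-ratios scaling, with and without the block, HIST1H2AC became 0.18, HIST1H2BC 0.20, HIST1H2BD 0.32, HIST1H4H 0.090, HIST2H2AC 0.11 and HIST2H4A 0.092 on the log2 scale. With the same FPKM total per library HIST1H2AC became 0.10, HIST1H2BC 0.10, HIST1H2BD 0.21 and HIST1H4H 0.0010. A pseudocount of 0.1 gave 0.0087 for HIST1H2BD and -0.046 for HIST1H2BJ. Without both libraries numbered 1 HIST1H2AC became 0.38, HIST1H2BC 0.063, HIST1H2BD 0.23, HIST1H3E 0.45 and HIST1H4H 0.24. With copies summed the unit holding HIST1H4J was at -0.23, that of HIST2H2AA3 at 0.29 and that of HIST2H4B at -0.23. Leaving out single libraries gave -0.30 to 0.24 for HIST1H2AC, -0.39 to 0.46 for HIST1H2BD, -0.25 to 0.53 for HIST1H2BJ, -0.54 to 0.30 for HIST1H3E, -0.57 to 0.11 for HIST1H4H, -0.18 to 0.87 for HIST1H4J, -0.16 to 0.25 for HIST2H2BE and -0.062 to 0.81 for HIST2H4B. Depth limits the low members: on 400 nt, 1 FPKM rests on under 8 fragments if the low step is 1 fragment.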
